A study of Rattus norvegicus with 45 samples.

Results

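The heat shock proteins and DnaJ cochaperones of the rat were described across 8 tissues and both treatment arms of 1 series. Members were the genes whose symbol begins with Hspa, Hspb, Hspd, Hspe, Hsph, Hsp90, Dnaja, Dnajb or Dnajc followed by a number or letter, which gave 72 of the 20794 genes in the deposited tables. They comprise 12 Hspa, 10 Hspb, 3 Hsp90, 4 Dnaja, 12 Dnajb and 28 Dnajc genes and 1 each of Hspd, Hspe and Hsph. The rule works on symbols, so it takes in Hspbp1, Hspbap1 and Hspb11, which are not chaperones of these families by function, and it leaves out the crystallins, which are small heat shock proteins under other names. The animals were male spontaneously hypertensive rats, a strain bred for raised blood pressure, 8 weeks old and weighing 220 to 260 g. One arm received empagliflozin, which blocks glucose reuptake by the kidney through SGLT2, at 10 mg/kg per day by gavage, and the other received saline vehicle, each for 30 days. Messenger RNA was sequenced from lung, kidney, brain, aorta, both fat depots (brown and white) and a tissue marked V in both arms, with 3 libraries per group, and from atrium in the empagliflozin arm. That made 45 libraries, 21 vehicle and 24 empagliflozin, and vehicle atrium was not analysed here. All rats were of this hypertensive strain, and no normotensive strain was among the groups.

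Heat shock proteins are molecular chaperones, which hold, fold or hand over other proteins. Hsp70 proteins (Hspa) bind and release exposed stretches of a client in a cycle driven by ATP; J-domain proteins (Dnaja, Dnajb, Dnajc) deliver clients and start the hydrolysis step, and Hsp110 relatives exchange the nucleotide. Hsp90 proteins act later on near-folded clients such as kinases and hormone receptors, Hspd1 with its lid Hspe1 forms the folding chamber of the mitochondrial matrix, and small heat shock proteins (Hspb) hold unfolded proteins without ATP and are abundant in striated muscle. Most of the cytosolic genes are switched on by heat shock factors under stress, and those of the endoplasmic reticulum by the unfolded protein response.

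Levels are in FPKM, which divides the fragments of a gene by its transcript length and by the size of the library, so levels are per length and may be set beside each other between genes. A library's FPKM summed to between 414248 and 824205, and the number of reads behind a value is unknown. Differences were tested with limma, a linear model fitted over all genes at once, on log2(FPKM + 1), and a difference was called at a Benjamini-Hochberg adjusted p under 0.05 over all genes tested. The added 1 understates the change of genes with low values. The series text describes 3 rats per arm. Between the arms of a tissue, p-values measure the spread between the 3 libraries of each group. Between vehicle tissues and for arm by tissue, each gene has a common spread over all groups of the fit, so an odd library in any group widens it. Limma also moderates each spread by those of other genes. Libraries of different tissues were fitted as independent, although they may come from the same rats. Liver is the label of the V libraries, but ventricle is the tissue in the series text. In all 6 V libraries hepatocyte markers summed to between 31.6 and 38.0 FPKM, with albumin (Alb) at 0.09 or less, while cardiomyocyte markers summed to between 56625 and 64313 FPKM and the myosin Myh6 lay between 3423.83 and 6163.61. They are called the V libraries here. The aorta libraries numbered 1 stood apart: those of both arms were most like a brown fat library over all genes (r = 0.981 for vehicle and 0.9861 for empagliflozin). Brown adipocyte markers summed to 20821.0, 1377.4 and 88.3 FPKM in the 3 vehicle aorta libraries and to 13457.3, 371.4 and 7064.9 in the 3 of the empagliflozin arm. Smooth muscle markers summed to 417.3, 21850.3 and 19941.5 and to 404.8, 12835.2 and 5632.6, so in both arms the library numbered 1 held the fewest. Their part in each aorta result was not tested, and values without vehicle library 1 are given beside the results they touch. In bulk tissue, fewer cells of a type and less RNA per cell cannot be told apart.

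Promoter sequence shows which members carry the elements through which the stress responses are known to act. RefSeq promoters of 300 bases (250 before to 50 after the annotated start, build GRCr8, which is not the build of the deposited values) were matched by gene ID for 58 of the 72 members. A heat shock element of 3 units, that is 3 alternating units of GAA and TTC, each followed by any 2 bases before the next, on either strand, occurred in 267 of 33469 promoters (0.798%) and in 5 of the 58 members (8.62%): Dnaja1, Hspa8, Hspd1, Hspe1 and Hsph1. The shorter form of 2 units, GAA then TTC with any 2 bases between, which overlaps the longer one, occurred in 8.59% of promoters and in 13 members (22.4%), among them Hspb1, Hspb6, Hspb8 and Dnajb1. The endoplasmic reticulum stress element, that is CCAAT and CCACG with any 9 bases between, on either strand, occurred in 22 promoters (0.0657%) and in 3 members (5.17%), Hspa5, Hsp90b1 and Dnajc3. The 4 promoters printed are those of the mitochondrial cochaperonin Hspe1, the exchange factor Hsph1, the constitutive Hsp70 Hspa8 and the reticulum Hsp70 Hspa5, whose genes recur in the results; capitals mark the 3-unit heat shock element in the first 3 and the endoplasmic reticulum stress element in the last.
Hspe1, chr9:64084077-64084376, plus strand: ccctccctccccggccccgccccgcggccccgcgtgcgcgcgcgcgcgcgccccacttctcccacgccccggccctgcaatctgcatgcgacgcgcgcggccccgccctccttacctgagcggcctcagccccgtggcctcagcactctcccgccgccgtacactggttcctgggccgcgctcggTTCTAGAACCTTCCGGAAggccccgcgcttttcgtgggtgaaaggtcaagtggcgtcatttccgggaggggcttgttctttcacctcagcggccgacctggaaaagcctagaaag
Hsph1, chr12:10427118-10427417, plus strand: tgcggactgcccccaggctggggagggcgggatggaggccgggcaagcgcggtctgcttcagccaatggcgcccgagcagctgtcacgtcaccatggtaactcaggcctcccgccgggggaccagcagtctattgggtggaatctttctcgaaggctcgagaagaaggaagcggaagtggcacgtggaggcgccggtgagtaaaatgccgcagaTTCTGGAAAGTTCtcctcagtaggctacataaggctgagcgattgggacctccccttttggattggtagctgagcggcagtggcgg
Hspa8, chr8:50080264-50080563, plus strand: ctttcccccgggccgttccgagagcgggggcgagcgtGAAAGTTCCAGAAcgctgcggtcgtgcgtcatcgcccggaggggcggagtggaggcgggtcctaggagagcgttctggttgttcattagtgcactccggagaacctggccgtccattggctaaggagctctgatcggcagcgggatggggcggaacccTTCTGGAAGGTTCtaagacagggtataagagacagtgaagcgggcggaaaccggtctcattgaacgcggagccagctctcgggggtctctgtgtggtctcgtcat
Hspa5, chr3:38452766-38453065, plus strand: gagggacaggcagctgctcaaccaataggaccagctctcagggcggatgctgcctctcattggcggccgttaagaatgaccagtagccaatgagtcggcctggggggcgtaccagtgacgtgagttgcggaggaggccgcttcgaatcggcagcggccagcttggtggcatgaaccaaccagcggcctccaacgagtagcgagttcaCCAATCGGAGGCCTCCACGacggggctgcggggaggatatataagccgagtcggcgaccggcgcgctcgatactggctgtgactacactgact
In Hspe1 a pair of overlapping elements ran from base -65 to base -48 before the start. Hspd1 lies head to head with Hspe1 on the minus strand, and the windows of the 2 genes share 211 bases, so the same pair of elements counts for both. In Hspa8 the elements began at bases -213 and -55, in Hsph1 at base -36, and the element of Hspa5 began at base -43. A match is a description of the letters, not a test of binding.

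**Figure D1:**
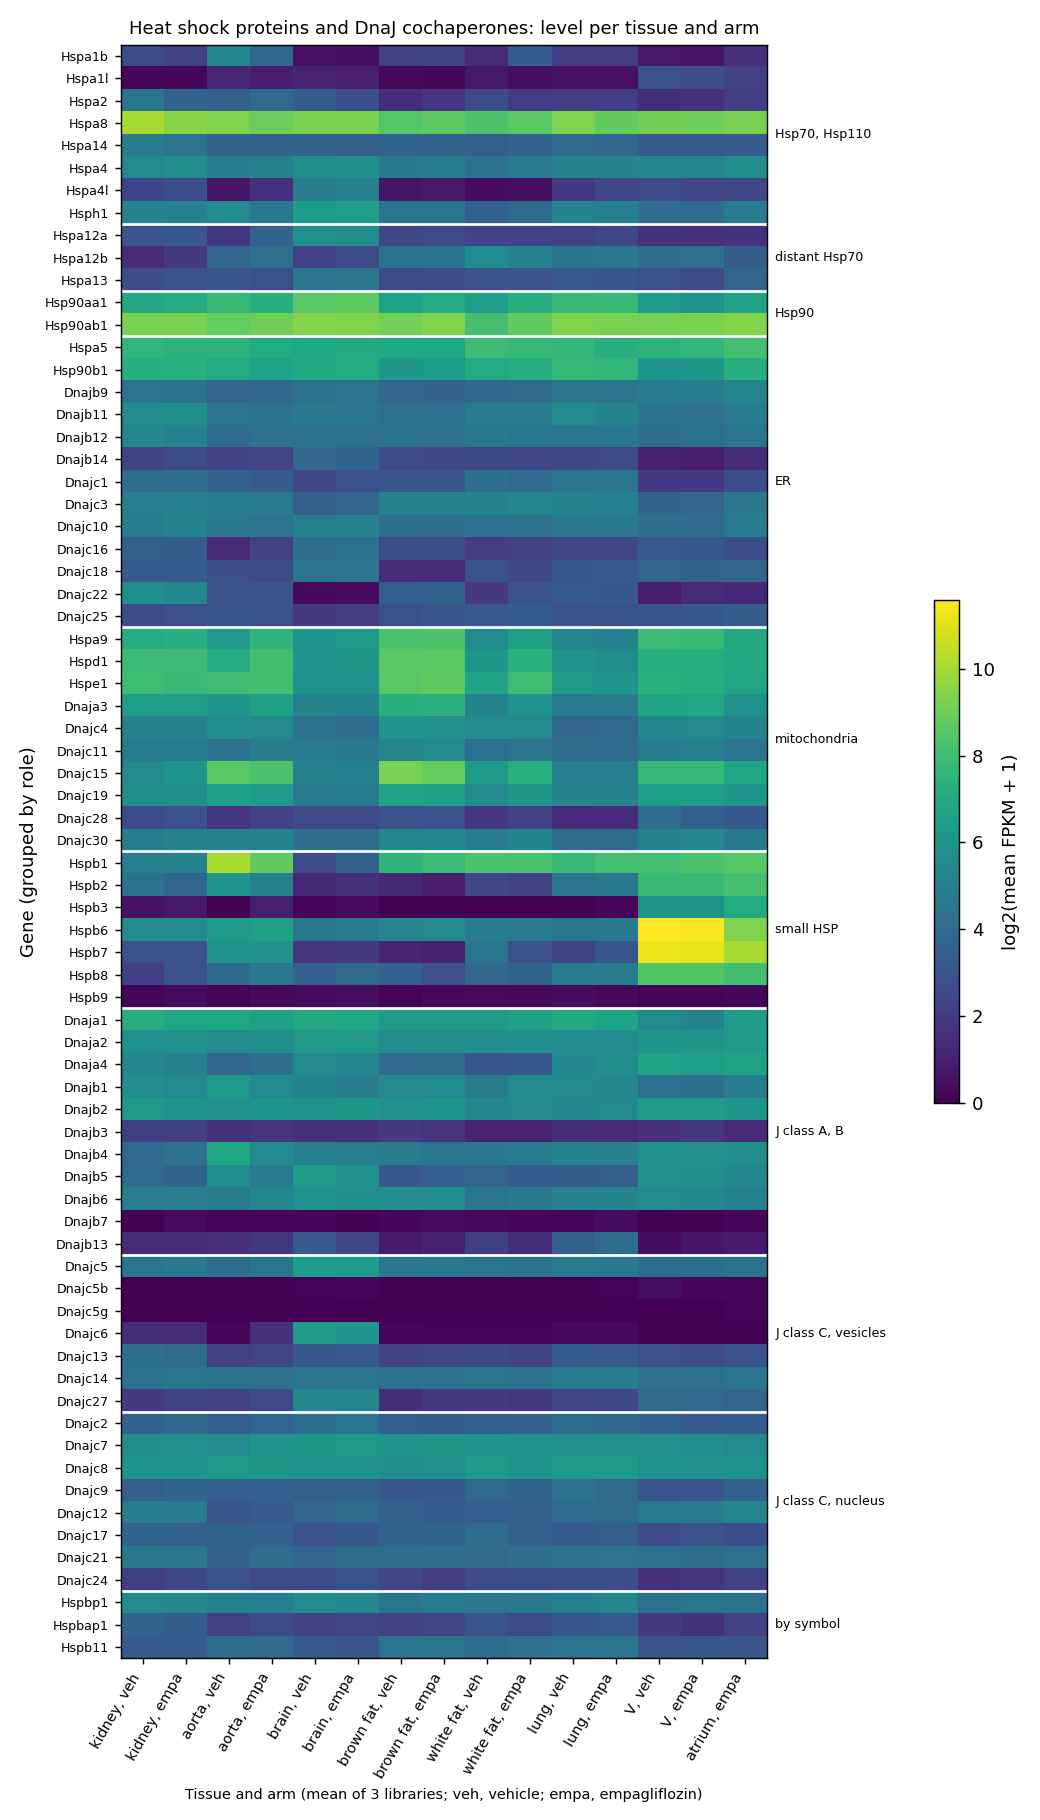
Heat map of the mean level (log2 of FPKM + 1, mean of 3 libraries) of the members in each of the 15 tissue and arm groups, with genes grouped by role. Hspb6, Hspb7 and Hspb3 are highest in V and atrium, while Hspb1 is highest in aorta.

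Of the 72 members, 68 had a group mean of 1 FPKM or more in some group and 61 did so in all 7 vehicle tissues; 34 reached 10 FPKM in all 7. The 4 that did not reach 1 FPKM were Dnajb7, Dnajc5b, Dnajc5g and Hspb9, with highest group means of 0.317, 0.34, 0.0733 and 0.327 FPKM. Over the 21 vehicle libraries the highest mean levels were those of Hspa8 (604.5 FPKM), Hsp90ab1 (550.0), Hspb6 (472.3), Hspb7 (360.9), Hspb1 (299.8), Dnajc15 (196.9), Hspe1 (189.1) and Hsp90aa1 (177.8). Together the members made up 1.6% ± 0.0874 (SD, n = 3) of the summed FPKM in vehicle V, 0.895% ± 0.0324 in brain, 0.766% ± 0.0941 in kidney, 0.763% ± 0.222 in aorta, 0.669% ± 0.0485 in brown fat, 0.595% ± 0.0573 in lung and 0.479% ± 0.0158 in white fat. The aorta libraries ranged from 0.508% to 0.911%, so the place of aorta in this order is not set, while V lay above every other tissue. Several members have many pseudogenes named in RefSeq, 33 for Hspa8, 23 for Hsp90ab1, 20 for Hspd1 and 16 for Hsp90aa1, and reads of 50 bases may be shared with them. The gene named Hspa1b in the tables carries the ID that RefSeq gives to Hspa1a, a near-identical neighbour, so its values may stand for both.

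Which tissues hold which chaperones was read from the vehicle libraries, each tissue against the mean of the other 6. These contrasts share their libraries. Among the 7 tissues, limma called 66 of the 68 members tested different (97.1%), against 96.2% of all 16539 genes; the 2 not called were Dnajb3 and Hspa1b. The share of members called is therefore that of any gene, and the results are the tissues and roles in which they differed. The median difference of all genes was not 0, from -0.45 in V to 0.27 in lung, and a size given as relative has that median subtracted.

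V, the tissue with cardiomyocyte markers, was the highest tissue for the small heat shock proteins tested except Hspb1. In V, 24 members were called higher (14.2% of all genes were) and 22 lower (51% of genes). The split moved to 32 higher and 13 lower with quantile normalization and to 34 and 14 with median-ratio scaling. The median of the members was 0.14 and that of all genes -0.45. All 6 small heat shock proteins tested were called higher in V against the mean of the other 6 tissues, although Hspb1 had higher means in aorta and white fat. The same 6 were called lower in brain (33.9% of genes), as deposited and under both scalings. The brain contrast is against a mean that includes V. Of the 6, only Hspb1 was below every other vehicle library in brain. Hspb8 had a mean of 11.44 FPKM in brain and 3.46 in kidney, and Hspb6 24.31 in brain and 21.82 in lung.

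Hspb6, which in muscle binds and regulates contractile proteins, lay at 3139.93, 3268.73 and 2817.33 FPKM in the 3 vehicle V libraries. The next tissue was aorta, with 54.8, 66.81 and 99.18 FPKM, so the groups did not overlap and the mean in V was 41.8-fold higher (difference 6.43 ± 0.17 SE on the log2 scale, adjusted p = 3.637e-15 by limma). Hspb7, the cardiovascular small heat shock protein, lay at 2387.03, 2700.23 and 2193.52 FPKM in V. In aorta it lay at 0.89, 72.68 and 118.06, the lowest being the library numbered 1, and its difference for V was 8.38 ± 0.73 (adjusted p = 4.377e-08 by limma). Hspb3, a muscle form, was at 71.5, 54.17 and 57.65 FPKM in V and at or near 0 elsewhere, the next tissue mean being 0.477 in kidney. Hspb8, which pairs with the cochaperone Bag3 in selective autophagy, had a mean of 346 ± 34.4 FPKM (SD, n = 3) in V and 25.3 in lung, the next tissue. Hspb2, another muscle form, had a mean of 221 ± 19.2 in V and 66.8 in aorta, where its libraries ranged from 2.64 to 128.43. For Hspb3, Hspb8 and Hspb2 every V library also lay above every other vehicle library (5.82 ± 0.09, 4.83 ± 0.20 and 4.68 ± 0.64). Without vehicle aorta library 1 the V differences of Hspb7 and Hspb2 were 8.06 ± 0.20 and 4.42 ± 0.25. Members below every other tissue in V were the cilium-associated Dnajb13 (0.303 ± 0.208 FPKM), the reticulum J proteins Dnajc1 (2.91 ± 0.327) and Dnajb14 (1.11 ± 0.07), the stress-inducible Dnajb1 (18.0 ± 0.922) and the ribosome-associated Hspa14 (8.37 ± 1.1). Relative to all genes the difference of Hspa14 was -0.20, and it was not called under quantile normalization (-0.21, adjusted p = 0.2715 by limma) or median-ratio scaling (-0.27, 0.1767).

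**Figure D2:**
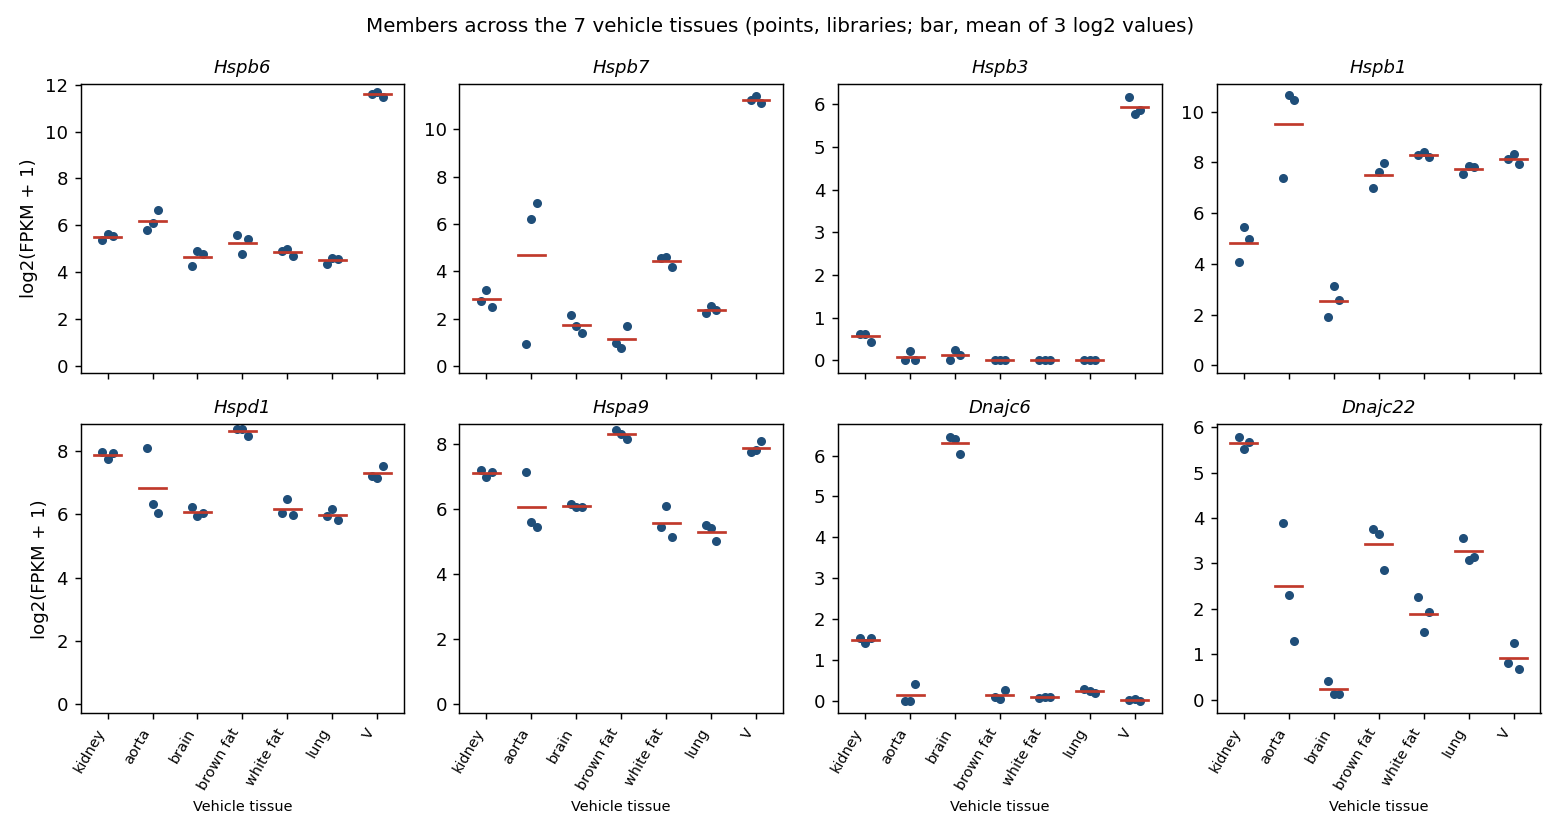
Level of 8 members in the 7 vehicle tissues, on a log2(FPKM + 1) axis; points are libraries and bars the mean of 3 log2 values. Hspb6, Hspb7 and Hspb3 are highest in V, Hspd1 and Hspa9 in brown fat, Dnajc6 in brain and Dnajc22 in kidney, and 1 of 3 aorta libraries lies far from the other 2 for Hspb7 and Hspb1.

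The small heat shock protein Hspb1 behaved differently from the muscle forms. It lay at 165.88, 1625.87 and 1396.88 FPKM in aorta, at 282.13, 317.33 and 244.49 in V and at 2.77, 7.69 and 5.03 in brain. In white fat it lay at 308.61, 342.68 and 295.93 FPKM, a mean of 315.7 against 281.3 in V. Aorta was called higher (2.99 ± 0.46, adjusted p = 7.368e-05 by limma), although library 1 fell below all 3 V libraries, and brain was called lower (-5.13 ± 0.46, adjusted p = 2.808e-08).

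In aorta 4 members were called higher (10.4% of genes) and 20 lower (33.8%), with splits of 11 and 16 under quantile normalization and 11 and 12 under median-ratio scaling. The other 3 called higher were Hspa1b, the inducible Hsp70, at 0, 77.48 and 46.6 FPKM, and its J-protein partners Dnajb4 at 13.24, 242.56 and 106.75 and Dnajb1 at 35.77, 111.18 and 86.61. In each of these the library numbered 1 was far below the others. Without vehicle aorta library 1, 18 members were called higher (18.9% of genes) and 19 lower (31.5%). The largest differences upwards were 4.53 for Hspa1b, 4.05 for Hspb1, 3.00 for Hspb2, 2.59 for Hspb7 and 2.43 for Dnajb4. Dnajb5 (1.67), Dnajb1 (1.49), Hspa2 (1.40) and Hsph1 (1.34) followed. Immediate early genes, which respond within minutes to handling and dissection, summed to 255.7, 3760.7 and 2587.5 FPKM in these libraries, so they were high in the same libraries as Hspa1b, Hspb1 and Dnajb4. The limma fit called 8 of the 12 immediate early genes higher in aorta and 0 lower, or 12 and 0 without library 1, and their part in the aorta values was not tested. Dnajc16, a reticulum J protein, was below every other tissue in aorta, at 1.61 ± 0.756 FPKM (-1.68 ± 0.19, adjusted p = 2.901e-06 by limma, and -1.73 ± 0.23 without library 1).

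Mitochondrial chaperones marked brown fat. All 10 mitochondrial members were called higher in brown fat than in the other tissues, with a median difference of 1.36. All 10 were called lower in lung (median -1.21), where 19.9% of all genes were. Both counts were the same under both scalings and without vehicle aorta library 1. In brown fat 14 of 68 members were called higher (15.8% of genes) and 23 lower (41%), or 18 and 21 with quantile normalization and 17 and 18 with median-ratio scaling.

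Hspd1, the chaperonin, was at 419.11, 414.77 and 359.34 FPKM in vehicle brown fat and at 61.28, 71.31 and 55.88 in lung (brown fat against the others 1.93 ± 0.27, adjusted p = 1.854e-05 by limma). Hspa9, the Hsp70 that pulls precursors into the matrix, was at 349.94, 317.79 and 283.83 in brown fat and at 44.41, 41.92 and 31.12 in lung (1.97 ± 0.25, adjusted p = 7.443e-06 by limma). For both, every brown fat library lay above every other vehicle library. Dnajc15, an inner-membrane J protein of the import motor, was higher still in the contrast, at 472.96, 805.86 and 501.65 FPKM in brown fat. The aorta library that stood apart held more of it, at 987.29 against 127.16 and 50.93 in the other 2, so brown fat and aorta overlapped. Hspe1 followed the same order, with 348.9, 514.03 and 327.25 in brown fat and 525.44, 179.74 and 85.55 in aorta. The brown fat differences of Dnajc15 and Hspe1 were 2.99 ± 0.49 and 1.62 ± 0.33, and 3.19 ± 0.20 and 1.73 ± 0.20 without vehicle aorta library 1. Dnajc11, linked to cristae, was above every other tissue at 37.6 ± 3.52 FPKM, a smaller difference of 0.76 ± 0.18. Of the 10 mitochondrial members, 6 were called higher in V (14.2% of genes) and 8 lower in brain (33.9% of genes). V came next after brown fat for Hspa9 (216.0, 224.99 and 274.24 FPKM).

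In brain 22 members were called higher (35.7% of genes) and 24 lower (33.9%). Of the 5 class C J proteins of vesicles and the cytoskeleton tested, 3 were called higher in brain and 0 lower, as deposited and under both scalings. Dnajc6, the auxilin that recruits Hspa8 to strip clathrin from vesicles in neurons, lay at 86.27, 83.3 and 64.72 FPKM. Kidney, the next tissue, held 1.93, 1.7 and 1.9 FPKM, so the brain mean was 42.4-fold higher and no library overlapped (5.94 ± 0.10, adjusted p = 1.538e-18 by limma). Also above every other vehicle library in brain were Hspa12a, a distant Hsp70 relative (69.18, 52.51 and 45.47 FPKM), Hspa4l, of the Hsp110 type (29.3 ± 4.99), Dnajc27, a J protein with a Rab-like domain (41.9 ± 2.56), and Dnajc5, the cysteine string protein of synaptic vesicles (83.0 ± 8.19). Their differences were 3.57 ± 0.25, 3.46 ± 0.11, 3.08 ± 0.21 and 2.00 ± 0.12. Below every other tissue were Hspb1, Dnajc22 (0.18 ± 0.139 FPKM) and Dnajc25 (2.97 ± 0.354). Both cytosolic Hsp90 genes were called higher in brain, Hsp90aa1 at 477.81, 390.14 and 326.37 FPKM and Hsp90ab1 at 723.17, 616.14 and 728.88. With median-ratio scaling 1 of the 2 was called. Hsp90aa1, the more stress-responsive of the pair, made up 30.9% to 39.8% of their sum in the vehicle brain libraries and 7.95% to 14.2% in V; the widest range was in aorta, from 11.5% in library 1 to 48.6% in library 2.

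In kidney 21 members were called higher (25% of genes) and 11 lower (30.7%). Of the 8 cytosolic Hsp70 and Hsp110 genes tested 5 were called higher and 1 lower, or 4 and 1 with quantile normalization. Dnajc22, a membrane J protein, was at 54.1, 44.97 and 49.79 FPKM, against a mean of 10.1 in brown fat, the next tissue, and the kidney libraries lay above all others (3.62 ± 0.34, adjusted p = 7.378e-08 by limma). Hspa8 was also called higher in kidney (adjusted p = 0.001704 by limma), at 986.81, 928.53 and 1354.88 FPKM. Its range reached the aorta library at 980.43, so the groups overlapped. The endosomal Dnajc13 (17.0 ± 2.15), Hspa14 (26.5 ± 5.37) and Dnajb12, a J protein of reticulum-associated degradation (41.3 ± 3.25), were above all other vehicle libraries, by 1.48 ± 0.22, 1.14 ± 0.13 and 1.09 ± 0.11. Hspb8 (3.46 ± 1.24) and Hspa12b (1.90 ± 0.296) were below all others.

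In white fat 8 members were called higher (20.9% of genes) and 24 lower (22.8%), or 7 and 31 with quantile normalization and 3 and 34 with median-ratio scaling. Without white fat vehicle library 1, 21 members were called in all. Hspa12b, a distant Hsp70 relative known from endothelium, was above every other tissue at 41.14, 38.34 and 65.11 FPKM (2.23 ± 0.30, adjusted p = 1.473e-05 by limma). Endothelial markers summed to 275.2, 435.8 and 425.0 FPKM in these 3 libraries. In vehicle lung they summed to 416.6, 493.1 and 892.8, with Hspa12b at 14.31, 15.76 and 27.47 FPKM. The part of the endothelial markers was not tested. The cytosolic Hsp90ab1 was at 280.35, 305.24 and 285.76 FPKM, below every other vehicle library (-1.01 ± 0.13, adjusted p = 5.466e-06 by limma). So were the class A J protein Dnaja4 (7.66 ± 0.482) and Hspa4l (0.323 ± 0.071). Of the 8 cytosolic Hsp70 and Hsp110 genes 4 were called lower in white fat and 0 higher, and of the 10 cytosolic class A and B J proteins 5 and 0.

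In lung 15 members were called higher (40.4% of genes) and 19 lower (19.9%), a split of 13 and 29 with quantile normalization and 4 and 29 with median-ratio scaling. Among the 13 reticulum chaperones and J proteins 6 were called higher and 0 lower. Quantile normalization gave 4 and 5 and median-ratio scaling 2 and 3, so the direction of this group depends on the scaling. Hsp90b1, the Hsp90 of the reticulum, was at 206.39, 237.59 and 180.54 FPKM in lung and at 64.93, 51.96 and 79.46 in V. Dnajc1, a J protein of the reticulum and nuclear envelope, was above every other vehicle library in lung at 21.43, 21.12 and 21.6 FPKM (1.25 ± 0.15, or 0.98 relative to all genes, adjusted p = 1.935e-06 by limma). Dnajc14, counted here with the class C J proteins of vesicles and the cytoskeleton, was also above all others (28.4 ± 1.86 FPKM, 0.52 ± 0.10). Its difference under median-ratio scaling was only 0.07 (adjusted p = 0.5605 by limma). Dnajc4 was below all others at 13.1 ± 0.746. Hspa5, the main Hsp70 of the reticulum, was spread more evenly, with vehicle means from 109.7 FPKM in brain to 243.6 in white fat.

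Other genes of the same pathways were read from 4 lists. Of all genes, 15.8% were called higher and 41% lower in brown fat, and 40.4% and 19.9% in lung. In brain these shares were 35.7% and 33.9%, and in V 14.2% and 51%. Of 12 genes of mitochondrial protein quality control outside the family, 9 were called higher in brown fat and 1 lower, among them the matrix proteases Clpx (1.61 ± 0.19) and Lonp1 (0.96 ± 0.16), the import protein Timm44 (1.89 ± 0.32) and the mitochondrial Hsp90 Trap1 (2.26 ± 0.38), with the exchange factor Grpel2 lower (-0.42 ± 0.16). Under both scalings the counts were 9 and 0. In lung 7 of the 12 were called lower and 2 higher. Of 22 genes of the unfolded protein response, 16 were called higher in lung and 1 lower, including the degradation factor Edem1 (2.15 ± 0.17) and the Hspa5 partner Sdf2l1 (2.54 ± 0.24), against 7 and 3 with median-ratio scaling; in brain 1 was called higher and 14 lower, with the collagen chaperone Serpinh1 at -3.06 ± 0.20. Of 26 heat shock factors and Hsp70 or Hsp90 cochaperones, 9 were called higher and 6 lower in V, where the myosin chaperone Unc45b had the lowest p (5.74 ± 0.08, adjusted p = 3.052e-19 by limma).

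The effect of empagliflozin was tested in each tissue on its own, 3 libraries against 3. No member was called in any tissue: limma called 0 of 66 members tested in kidney, 0 of 67 in aorta, 0 of 65 each in brain, lung and V, and 0 of 64 in either fat. Of all genes the share called was 0% in kidney, aorta, brain and lung, 0.0085% in brown fat, 0.00785% in white fat and 0.0085% in V, so a count of 0 is the background. At an unadjusted p under 0.05 limma gave 7 members in white fat (8.68% of all genes), 6 in kidney (11.7%), 3 in V (4.05%), 1 in lung (7.62%), 1 in brown fat (3.56%), 1 in brain (2.57%) and 0 in aorta (1.1%). As shares of members these are 9.09% in kidney, 10.9% in white fat and 4.62% in V, near the background. The smallest adjusted p of a member was 0.3254 by limma, for Hspb7 in white fat.

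What the data bound differs by tissue. In V the 95% interval of the difference lay within 1 on the log2 scale, in either direction, for 65 of 65 members (100%). The same held for 58 members in kidney, 58 in brain, 57 in brown fat, 57 in lung and 45 in white fat. In aorta it held for 10 members (14.9%), so most differences of up to 1 could not be told from 0 there. The members' median difference was 0.15 in aorta, 0.04 in brown fat, 0.04 in brain, 0.03 in white fat, 0.01 in kidney, -0.01 in lung and -0.03 in V. In the same order the medians of all genes were 0.18, 0.05, 0.05, -0.18, 0.10, 0.03 and 0.01.

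**Figure D3:**
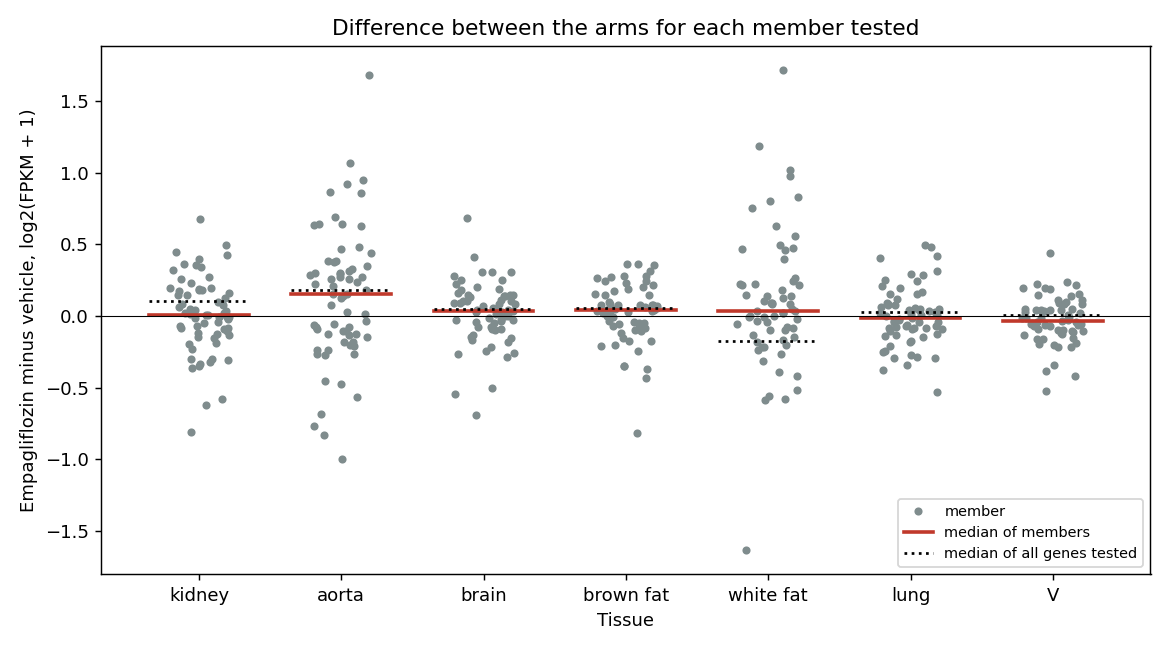
Empagliflozin minus vehicle on the log2(FPKM + 1) scale for each member tested in each tissue, with the median of the members and of all genes tested. Members spread most in aorta and white fat and least in V, and none passed the threshold.

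Libraries of the arms did not overlap for 12 of 64 members in white fat (17.2% of all genes did not), 8 of 66 in kidney (19.1%), 5 in V (9.07%), 5 in brain (5.92%), 3 in lung (12.9%), 3 in brown fat (8.39%) and 2 in aorta (6.75%). These shares of members, 18.8% in white fat and 12.1% in kidney, are near the background or below it, so separated values of single members are given as descriptions. In white fat Hspb7, a low-level gene there, was at 22.69, 23.14 and 17.06 FPKM in vehicle and at 7.21, 7.53 and 3.94 in empagliflozin libraries. The arms did not overlap, and the difference was -1.63 ± 0.27 (-1.46 relative to all genes, adjusted p = 0.3254 by limma). Hspd1 was at 65.44, 88.0 and 61.54 in vehicle and at 125.83, 138.67 and 244.88 with empagliflozin (1.19 ± 0.29, adjusted p = 0.4367 by limma). Hspa9 was at 42.48, 67.82 and 34.12 and at 84.75, 93.69 and 106.78 (1.02 ± 0.27, adjusted p = 0.4561 by limma). For both, each empagliflozin library lay above each vehicle library. Hspe1, the partner of Hspd1 on the shared promoter, was at 103.55, 122.66 and 94.96 and at 131.96, 152.63 and 463.55 (0.98 ± 0.46). Of the 10 mitochondrial members 9 had a positive difference, 3 of them at an unadjusted p under 0.05, with a median of 0.56. Of all genes 8.68% were at that p, and their median was -0.18. The share of all genes with a positive difference was not computed. This group was not recomputed without empagliflozin library 3, whose markers are given below, so its count and median are descriptions.

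Empagliflozin library 3 was the highest of its group for Hspd1, Hspe1 and Hspa9. That library also differed in its markers: brown adipocyte markers summed to 74.7, 86.7 and 62.9 FPKM in vehicle white fat and to 89.2, 112.4 and 2082.1 in the empagliflozin libraries. Mesothelial markers summed to 70.1, 104.2 and 13.9 and to 240.8, 160.5 and 304.4, so every empagliflozin library held more of them. Without empagliflozin library 3 the differences were 0.89 for Hspd1, 0.93 for Hspa9, 0.41 for Hspe1 and -1.38 for Hspb7 (adjusted p = 0.195 by limma), and 0 members were called. Dnajc15, high in brown fat, was at 64.87 and 82.57 FPKM in the other 2 libraries and at 334.83 in library 3. Fibroblast markers summed to 2167.1, 1774.2 and 1821.3 in vehicle and to 1307.1, 1256.7 and 670.1 with empagliflozin, and ciliated cell markers, of which 2 of 9 reached 1 FPKM, to 137.2, 200.1 and 228.1 and to 113.1, 97.1 and 100.2. Both lists were lower in every empagliflozin library. The part of the mesothelial, fibroblast and ciliated cell markers in the white fat differences was not tested.

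Cytosolic stress-responsive members also had positive values in white fat. Hsp90aa1 was at 92.74, 107.37 and 66.7 FPKM in vehicle and at 143.56, 131.39 and 189.6 with empagliflozin (0.80 ± 0.25, adjusted p = 0.5005 by limma). Hspa1b was at 0.84, 1.83 and 2.47 and at 10.75, 2.35 and 15.24, so the arms overlapped (1.72 ± 0.57, adjusted p = 0.5346 by limma). Hspa8, Hsph1, Dnaja1 and Dnajb1 had differences of 0.24, 0.46, 0.22 and 0.47, and without library 3 of -0.03, 0.22, -0.09 and 0.04. Dnajb5 and Dnajc18 had differences of -0.42 and -0.39.

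**Figure D4:**
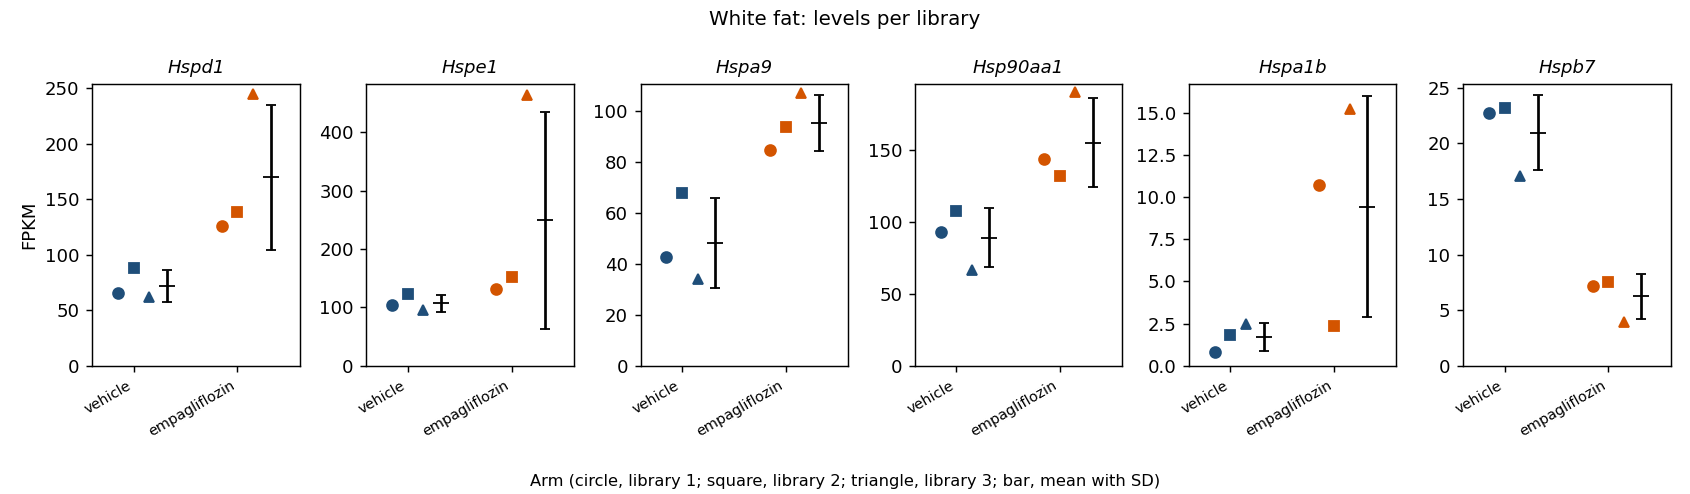
White fat levels (FPKM) of 6 members per library in both arms, with library number by symbol and a bar for the mean with its SD. Hspd1, Hspa9 and Hsp90aa1 are separated upwards and Hspb7 downwards, and library 3 of the empagliflozin arm is the highest for Hspe1 at 463.55.

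In kidney, the tissue in which SGLT2 acts, Hspa8 was at 986.81, 928.53 and 1354.88 FPKM in vehicle and at 596.8, 885.93 and 700.58 with empagliflozin. The arms did not overlap, although the lowest vehicle and the highest empagliflozin library lay close together (-0.58 ± 0.22, -0.68 relative to all genes, adjusted p = 0.4178 by limma). Dnajc15 was at 43.06, 51.96 and 44.15 and at 69.53, 54.1 and 74.5 (0.49 ± 0.15), without overlap. Dnajc27 and Hspa4l had differences of 0.40 and 0.42, Dnajb12 of -0.30 and Hspa2, an Hsp70 best known from testis, of -0.81 ± 0.35. Leaving out empagliflozin library 2 gave 2 called members (4.9% of genes), Dnajc15 (0.63, adjusted p = 0.04157 by limma) and Hspa2 (-1.18, 0.04475). Among the other stress-responsive members the differences in kidney were -0.35 ± 0.26 for Dnaja1, -0.19 ± 0.23 for Dnajb1, -0.09 ± 0.28 for Hsph1, 0.19 ± 0.23 for Hsp90aa1, 0.01 ± 0.15 for Hsp90ab1 and -0.09 ± 0.63 for Hspa1b, whose interval ran from -1.58 to 1.40.

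Markers of several cell types also separated the kidney arms. Proximal tubule markers summed to 3751.9, 4087.6 and 3482.2 FPKM in vehicle and to 3092.6, 3219.4 and 2076.5 with empagliflozin. Brown adipocyte markers, with Elovl3 and Otop1 at 0 in all 6 libraries, summed to 121.2, 143.1 and 132.3 and to 263.5, 215.3 and 375.5. That list is not particular to brown fat, as it summed to 8760.3, 7425.4 and 6712.1 FPKM in vehicle V. White adipocyte markers overlapped between the kidney arms (184.5, 257.6 and 178.7 against 198.1, 213.2 and 166.1). Endothelial markers were higher (47.3 to 87.0 against 87.7 to 197.6) and mesothelial markers lower (96.4 to 134.7 against 44.0 to 94.9) in the empagliflozin libraries. Their part in the kidney values of Hspa8, Dnajc15 and the other members was not tested.

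Lung shared the sign of Hspa8, at 563.39, 740.58 and 630.07 FPKM in vehicle and at 352.13, 426.75 and 578.67 with empagliflozin (-0.53 ± 0.21, adjusted p = 0.6344 by limma). The highest empagliflozin library lay just above the lowest vehicle library. Dnajb13, a J protein of cilia, was at 11.74, 12.49 and 8.5 and at 14.36, 21.39 and 12.33 (0.50 ± 0.22). Markers of ciliated cells moved with it, at 661.4, 723.2 and 529.6 in vehicle and at 784.6, 1255.3 and 810.1 FPKM with empagliflozin. Other lists also separated the lung arms. Mesothelial markers were higher with empagliflozin (201.0, 198.9 and 259.6 against 327.8, 426.5 and 404.6), as were low neuron markers (4.7, 6.3 and 11.5 against 13.6, 28.3 and 15.1). Macrophage markers were lower (444.4, 530.1 and 382.5 against 365.0, 292.6 and 312.8). Their part in the lung values of Dnajb13, Hspa8 and the other members was not tested. Hspb1 and Hspa4l had positive values of 0.41 and 0.48, and Hspa5 a negative one of -0.34. The values above are without pairing. A further fit took library numbers as pairs, a choice made from the same values, although the arms hold different rats. Its SE was 0.17 for Hspa8, 0.12 for Dnajb13, 0.12 for Hspb1 and 0.15 for Hspa4l. In that fit 8 of 65 lung members were at an unadjusted p under 0.05 (12.3%, against 12.5% of all genes). The adjusted p was 0.2441 by limma for Dnajb13 and higher for the other 3, and 0 members were called.

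In brown fat Hspb8 was at 9.59, 13.36 and 11.11 FPKM in vehicle and at 5.48, 4.45 and 8.59 with empagliflozin, without overlap (-0.81 ± 0.23, adjusted p = 0.9939 by limma). The mitochondrial members that mark brown fat had differences of 0.02 ± 0.14 for Hspa9, 0.04 ± 0.13 for Hspd1 and 0.15 ± 0.21 for Hspe1, with 95% intervals reaching up to 0.34, 0.34 and 0.63. Dnajc15 was at 472.96, 805.86 and 501.65 FPKM in vehicle and at 409.65, 522.03 and 434.25 with empagliflozin, which overlap (-0.35 ± 0.22, interval from -0.86 to 0.17). Dnajc11 was at 0.27 ± 0.12.

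In V, Dnajc28 was at 15.16, 14.7 and 18.22 FPKM in vehicle and at 9.35, 11.11 and 12.13 with empagliflozin, without overlap (-0.52 ± 0.13, adjusted p = 0.9989 by limma). Dnajc2, which with Hspa14 works at the ribosome, was at -0.42 ± 0.16 and Hspbp1, an exchange factor, at 0.23 ± 0.09. The small heat shock protein Hspb1 was at 0.22 ± 0.12. In brain the lowest p was that of Dnajc1, at 4.44, 3.97 and 4.93 and at 5.69, 6.18 and 6.82 FPKM (0.41 ± 0.14, adjusted p = 0.9822 by limma). Hspa8 was at -0.03 ± 0.11 in V and -0.03 ± 0.14 in brain.

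In aorta Hspa12a was at 2.63, 0.53 and 4.95 FPKM in vehicle and at 7.28, 22.27 and 4.63 with empagliflozin (1.68 ± 0.70, adjusted p = 0.9993 by limma). Library 2 of the empagliflozin arm, its highest, also held neuron markers at 592.3 FPKM, against 6.5 and 3.1 in libraries 1 and 3, and without it the difference was 1.09. With all tissues in 1 model, which takes the spread from every tissue, Hspa12a (adjusted p = 0.01998 by limma) and Dnajc7 (0.47, 0.0442) were called, against 1.14% of all genes. Hspb1 was at -0.99 ± 1.06 and Hspa1b at -0.77 ± 1.83. Without vehicle library 1 alone they were at -2.05 ± 0.78 and -2.75 ± 1.20, with 0 members called by limma (0% of genes) and 5 at an unadjusted p under 0.05 (7.9% of genes). Without both aorta libraries numbered 1 they were at -1.33 and -1.55, and 0 members were called.

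The difference between tissues in the response was tested as an arm by tissue term, each tissue against the mean of the other 6. Limma called 0 of 68 members in each of the 7 tissues, where it called 0.797% of genes for kidney, 0.737% for lung, 0.487% for brain, 0.375% for white fat, 0.0951% for aorta, 0.0178% for V and 0% for brown fat. At an unadjusted p under 0.05 limma gave 3, 0, 2, 6, 6, 2 and 1 members in the same order, against 7.94%, 5.18%, 5.29%, 13%, 13.3%, 1.78% and 0.963% of all genes. Of 68 members 6 are 8.82%. Hspa12a in aorta came closest (1.62 ± 0.39, adjusted p = 0.06717 by limma). Leaving out single aorta libraries raised the count for aorta to as many as 16, which was the count without vehicle library 1 (23.5% of members, against 15.5% of all genes in that fit). Empagliflozin aorta library 1, also most like brown fat, stayed in that fit. Arm by tissue was not run without both aorta libraries numbered 1, so that count is a description. Of the 4 pathway lists, 0 genes were called for empagliflozin in any tissue by limma.

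Atrium could be set beside V within the empagliflozin arm. Of 66 members tested 20 were called higher in atrium (37.2% of genes) and 13 lower (14.5%). Quantile normalization gave 16 and 19 and median-ratio scaling, chosen after seeing the data, 10 and 22, and the median of all genes was 0.21. The small heat shock proteins split. Hspb6 was at 547.5, 552.27 and 821.18 FPKM in atrium and at 3288.17, 3187.46 and 2262.25 in V (-2.19 ± 0.21, adjusted p = 0.0003532 by limma), and Hspb7 at 945.15, 1024.82 and 1302.16 and at 2667.69, 2424.24 and 1990.17 (-1.12 ± 0.16). Hspb3 went the other way, at 128.47, 161.7 and 115.68 in atrium and at 56.51, 68.46 and 49.42 in V (1.20 ± 0.16, adjusted p = 0.001116 by limma). None of the 3 overlapped between the chambers. Of the 13 reticulum members 9 were called higher in atrium and 1 lower, against 6 and 1 with quantile normalization and 5 and 1 with median-ratio scaling. Hsp90b1 was at 150.18, 152.62 and 155.51 FPKM in atrium and at 60.59, 68.99 and 67.26 in V (1.21 ± 0.08, adjusted p = 8.776e-05 by limma). Dnajc3, which also carries the endoplasmic reticulum stress element, was higher as well (0.79 ± 0.11). Of the 10 mitochondrial members 6 were called lower and 0 higher, including Dnajc15 (-0.94 ± 0.12) and Dnaja3, the mitochondrial class A J protein (-0.94 ± 0.09).

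Libraries carry the numbers 1 to 3 in each group, and the labels do not say whether a number marks an animal. The pattern that follows was chosen after seeing the data and is a description. In the empagliflozin arm library 3 was the highest of 3 in all 8 tissues for 13 of 16577 genes. Of these, 3 were members, Hspa1b, Dnajb4 and Hsp90ab1, and 3 more were from the list of 26 cochaperones, Stip1, Chordc1 and Cacybp. Hspa1b for example was at 0.68, 0.65 and 10.56 FPKM in brown fat, at 0.64, 0.9 and 4.3 in atrium and at 2.48, 1.11 and 6.34 in lung. Hsph1, Dnaja1 and Dnajb1 were highest in library 3 in 7 of 8 tissues, the exception being brain.

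Library 1 of the empagliflozin arm was the lowest of 3 in all 8 tissues for 12 genes, among them Hspa8 and the Hsp90 cochaperone Ptges3. Hspa8 was at 232.65, 327.52 and 680.46 FPKM in brown fat and at 301.36, 513.53 and 664.89 in aorta. In the vehicle arm library 1 was the lowest of 3 in all 7 tissues for 8 genes, among them Hspa1b and Hspb8, and Hspa1b was listed at 0 in library 1 of aorta, brain, brown fat and V. Library 3 of the vehicle arm was the highest in all 7 tissues for 52 genes, of which 0 were members. In the empagliflozin arm library 3 was the highest in 6 of 8 tissues for Hspa8 and Hspd1. It was the highest in 5 for Hsp90aa1, Hspb1, Hspb8 and Hspa9, in 4 for Hspa5 and Hspe1 and in 3 for Hsp90b1.

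**Figure D5:**
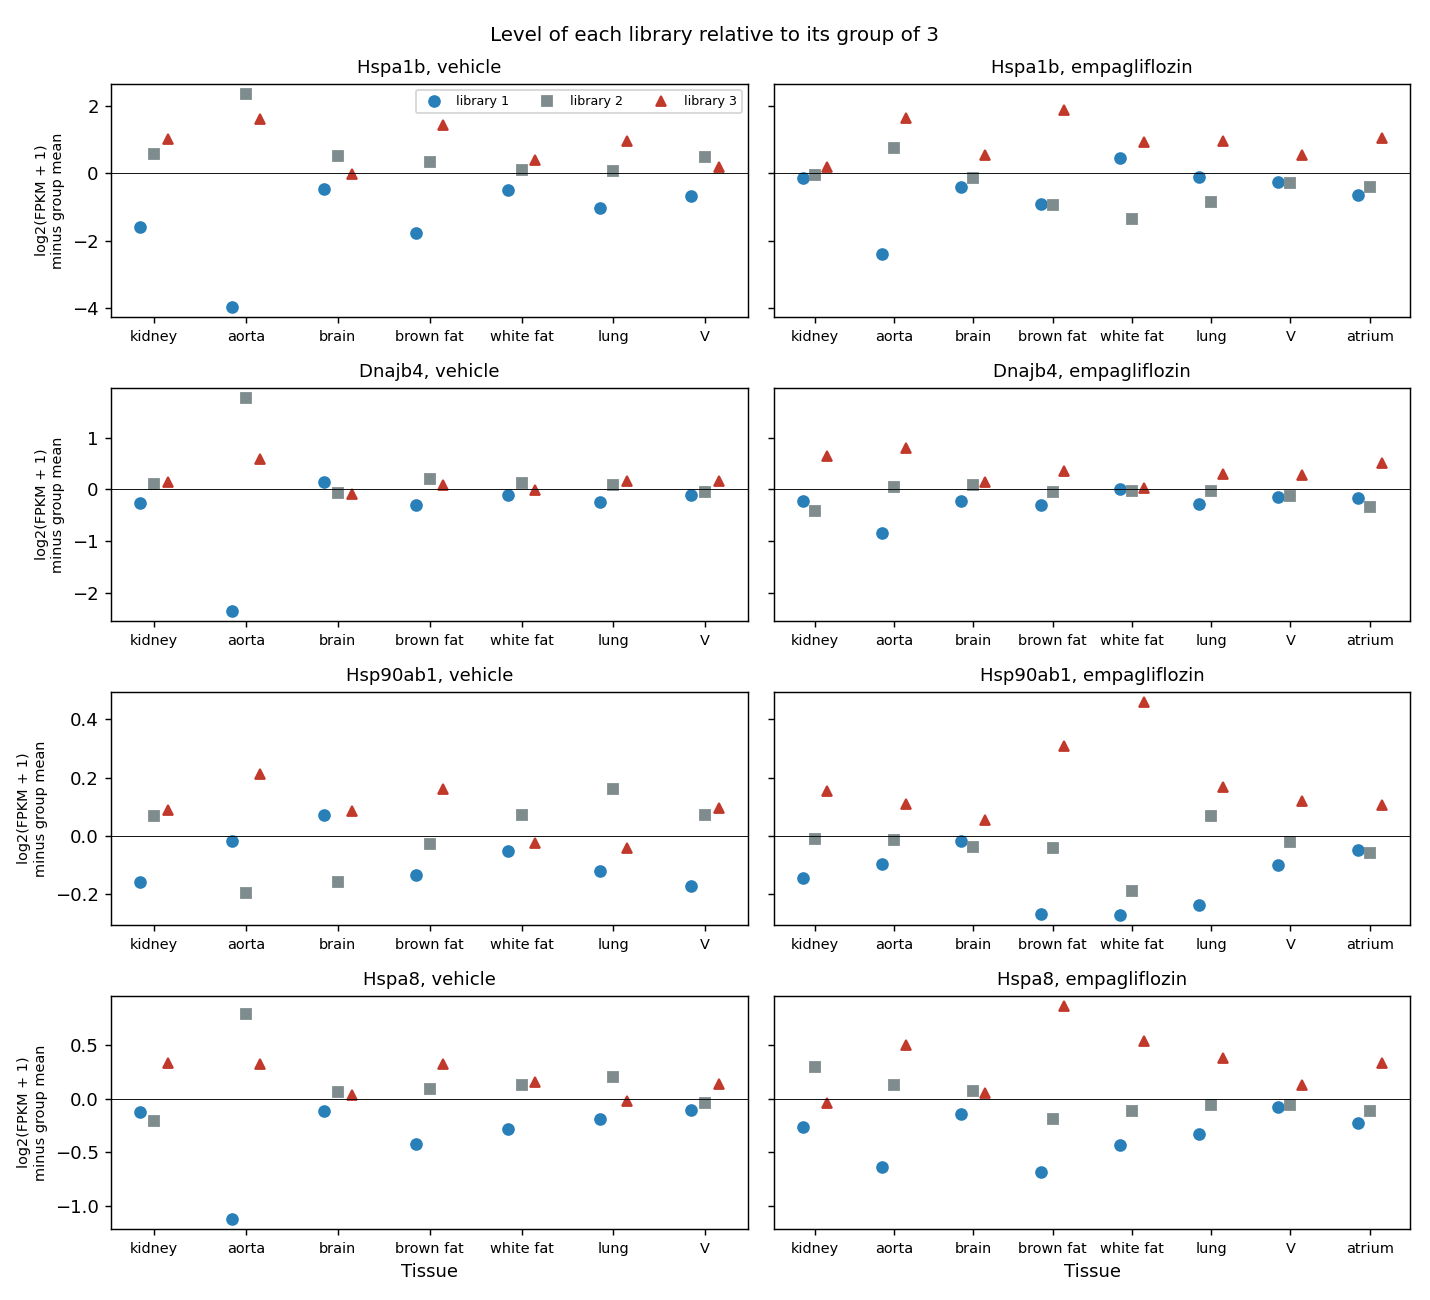
Level of each library minus its group mean on the log2(FPKM + 1) scale for Hspa1b, Dnajb4, Hsp90ab1 and Hspa8, by tissue and arm, with the library number by colour and symbol. In the empagliflozin column library 3 is the top point in all 8 tissues for Hspa1b, Dnajb4 and Hsp90ab1, and library 1 the bottom point in all 8 for Hspa8.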

How the data were processed

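RNA from 8 rat tissues was read in single-end mode, 50 bases, on the BGISEQ-500 platform, per the protocols of the labels. HISAT2 2.0.4, Bowtie2 2.2.5 and the build Rnor_6.0 are named, per the submitters' processing notes; the program that gave gene values is not stated in the sources used. The deposited values are FPKM per gene and library, made by the authors. They are not counts, so depth is unknown and no count test was run. All 45 libraries entered, grouped by tissue and arm, and 0 sample columns were left out.

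Members and gene lists were chosen with earlier results of these data known. Fits used limma 3.58.1 in R 4.3.3 with an intensity trend on log2(FPKM + 1), keeping genes that averaged 1 FPKM or more in some group, with Benjamini-Hochberg adjustment at 0.05, two-sided. Scripts were tested on simulated data. Named were members past the threshold (up to 10 per direction and tissue for empagliflozin, otherwise the 3 with the lowest p per direction), a panel of stress-responsive, reticulum and mitochondrial members, the 8 highest, and up to 5 per direction above or below every other tissue, or between atrium and V; for a pathway list, called genes, up to 4 per direction. Alternatives were quantile normalization, median-ratio scaling, a pseudocount of 0.1, no filter or one at 5 FPKM, robust empirical Bayes, all tissues in 1 fit, a replicate block, and each library left out. Role and list counts under the scalings were chosen after seeing the data. Replicate numbers are those of the titles. Lung libraries of the same number deviated together from their arm means (r = 0.227, 0.303 and 0.346). The lung results are from the fit without pairs, and a further fit took these numbers as pairs, as a replicate block. The pairs were chosen from the same values, and the arms hold different rats, so a pair is not an animal and the paired values are descriptions. With that block limma called 0 lung members, and 8 were at an unadjusted p under 0.05 against 1 without it (12.5% and 7.62% of all genes). Proteins were not compared, as no protein sequences were used here.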

Additional observations from a re-analysis of the deposited data

How the results depend on the processing

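With 3 libraries per group, unknown depth and 2 aorta libraries unlike the rest, moderate differences are poorly bounded in aorta and white fat. Between the arms, 1700 of 1704 recomputed values of single members kept their side of the threshold and 4 passed it, while 113 uncalled values changed sign; between vehicle tissues 942 of 945 did and 3 no longer passed (Dnajc14 in lung, Hspa14 in V), and between atrium and V all 100 did. No called value reversed. The members named between tissues were picked as called and beyond every other vehicle library, and those between atrium and V as called with the largest differences. That they stayed called was thus largely set in advance and says little of other members. Over all members tested, the split between atrium and V moved from 20 higher and 13 lower to 10 and 22 with median-ratio scaling. The median of members in kidney was 0.01 and -0.11 with median-ratio scaling, and in white fat 0.03, 0.21 with quantile normalization and 0.23 with median-ratio scaling; the cause was not tested. With all tissues in 1 fit 2 aorta members were called, Hspa12a and Dnajc7, since that fit takes the spread from all tissues. Leaving out 1 library gave 0 to 2 called members for empagliflozin in kidney, 22 to 37 for aorta and 21 to 44 for white fat against the other vehicle tissues (37 and 44 without vehicle aorta library 1, 21 without white fat vehicle library 1), and, for arm by tissue, 0 to 16 in aorta and 0 to 1 in white fat. The replicate block called 0 members for empagliflozin in all 7 tissues, and in the vehicle contrasts 47 for brain, 45 for V, 38 for brown fat, 35 for lung, 33 for kidney, 33 for white fat and 24 for aorta, and 32 between atrium and V; it moved no count of called members by over 1.5 times. Counts at an unadjusted p under 0.05 did move under the block: 8 against 1 in lung, 6 against 1 in brown fat, 3 against 6 in kidney, and for arm by tissue 13 against 6 in aorta and 11 against 6 in white fat. Outside lung, libraries of the same number in the 2 arms did not all correlate over 0.1, so their numbers were not taken as pairs.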

Other observations

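Chaperones of actin and tubulin folding outside the heat shock family followed another order of tissues. Of all genes, 10.4% were called higher and 33.8% lower in aorta, and 35.7% and 33.9% in brain. Between atrium and V the shares were 37.2% and 14.5%. Of 14 genes of the chaperonin CCT and of prefoldin, limma called 7 higher and 0 lower in aorta, led by the prefoldin subunits Pfdn1 (0.96 ± 0.17, adjusted p = 0.0002229) and Pfdn5 (0.88 ± 0.19) and the CCT subunits Tcp1 (0.41 ± 0.10) and Cct5 (0.43 ± 0.12). The count was 7 and 0 under both scalings, and 5 and 1 without vehicle aorta library 1. In brain 3 were called higher and 8 lower. Between atrium and V 5 were called higher and 0 lower as deposited, and 0 and 5 with median-ratio scaling, so that direction depends on the scaling.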
